A study of Rattus norvegicus with 12 samples.

Results

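The comparison described here is that of chronic prefrontal activation with its virus control in rats that received vehicle, and it holds 8 of the 12 libraries of the study. It comprises 4 rats of the chronic prefrontal activation (CPA) model given vehicle (CPA+veh) and 4 control rats given vehicle (control+veh), chosen by their labels, with 1 bulk RNA library per rat. All were adult male Sprague Dawley rats with AAV8 injected into the medial prefrontal cortex (mPFC). In CPA+veh the virus carried hM3Dq fused to mCherry under the CaMKIIa promoter, which is active in excitatory neurons, and in control+veh it carried a fluorophore (GFP) without the receptor. Both groups, controls included, drank the hM3Dq ligand clozapine-N-oxide (CNO) for 10 days and then had 7 days of daily vehicle. The mPFC was dissected from slices after electrophysiology, so the libraries pool transduced with untransduced cells, and the 12 rats were studied in 2 cohorts that the labels do not tie to libraries. The other 4 rats of the study (CPA+RO) received hM3Dq, CNO and the oxytocin receptor agonist RO6958375 in place of vehicle, and their values are given below where they add a set of hM3Dq carriers.

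hM3Dq is a designer receptor made from the human muscarinic M3 receptor, which couples to Gq, phospholipase C and the release of stored calcium, and it depolarizes the neurons that carry it when CNO binds. Strong firing of cortical pyramidal neurons is known to induce immediate early genes quickly, followed by slower programs of growth factors, synaptic proteins and signals to glia and vessels. The tissue was collected after CNO had been withdrawn and 7 days of vehicle given, from slices already cut and recorded. Values of early genes were thus read after that procedure, and the part of earlier CNO in them cannot be told apart from it.

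Libraries held 64993543 to 74277096 counts in CPA+veh and 68084135 to 77291797 in control+veh, and 19094 of 29009 genes passed the filter on low counts. Values below are counts per 1000000 counts of a library (CPM) after TMM scaling. The tissue was checked by RPKM, a level per gene length, over the 8 libraries. The median RPKM was 653 for Slc17a7 (vesicular glutamate transporter), 91.8 for Gad1 (GABA synthesis), 312 for Mbp (myelin), 88.5 for Gfap (astrocytes) and 24.1 for Cldn5 (endothelium). Drd2, abundant in striatum, stood at a median RPKM of 2.66, and Ttr, the main transcript of choroid plexus, at 0.92. On the first principal component of log2 CPM (16.5% of the variance) CPA+veh replicates 1 to 4 lay at 24.8, 31.8, 12.1 and 0.619, and control+veh replicates 1 to 4 at -17.6, -18.9, -29.0 and -31.8. CPA+veh replicates 1 and 2 stood furthest from the controls, and lists whose median is given below and changed sign without them are also given without them. The libraries also differed in how their deviations from the control mean followed gene length. The Spearman correlations were -0.20, -0.38, 0.03 and 0.16 in CPA+veh replicates 1 to 4 and -0.28, 0.09, -0.05 and 0.21 in control+veh. Nothing in the labels says whether rats shared a litter or cage, so p-values measure the spread between these rats.

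The targeted receptor was looked at first. Chrm3, the rat gene of the muscarinic M3 receptor, to which reads of the human-derived transgene may align, had 71.1, 225, 185 and 292 CPM in CPA+veh replicates 1 to 4 and 53.1, 64.9, 55.9 and 58.1 CPM in control+veh replicates 1 to 4. Each CPA+veh rat was above each control, but replicate 1 was close to the highest control and far below the other 3. The log2 fold change was 1.74 ± 0.33 (n = 4 rats a group) with an adjusted p of 0.0762 in edgeR's quasi-likelihood test. Without CPA+veh replicate 1 the adjusted p was 0.00268. Here and below, ± is a standard error derived from the fold change and the F value of the fit over all 12 libraries. Endogenous and transgenic receptor RNA cannot be told apart in these counts.

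Over all genes, 22 of 19094 passed the test at an adjusted p under 0.05 (0.115%), of which 4 rose (0.0209%) and 18 fell (0.0943%) in CPA+veh. Here and below, rose and fell mean higher and lower in CPA+veh than in control+veh. Which of the groups had moved was not tested. Apart from St18, Cbln1 and LOC108352098, the genes that fell were under 1 CPM in each CPA+veh rat. They included genes best known outside the cortex, namely a claudin, a kinesin of epithelia, a lung surfactant protein, a lens crystallin and a muscle ankyrin protein. At an unadjusted p under 0.05 there were 1897 genes (9.94%), 953 higher (4.99%) and 944 lower (4.94%) in CPA+veh. In 363 genes (1.9%) all 4 CPA+veh rats were above all 4 controls, and in 519 (2.72%) all 4 were below, so that the groups did not overlap in 882 genes (4.62%). The median log2 fold change of all genes was 0.01, and 51.9% of genes were above 0.

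**Figure D1:**
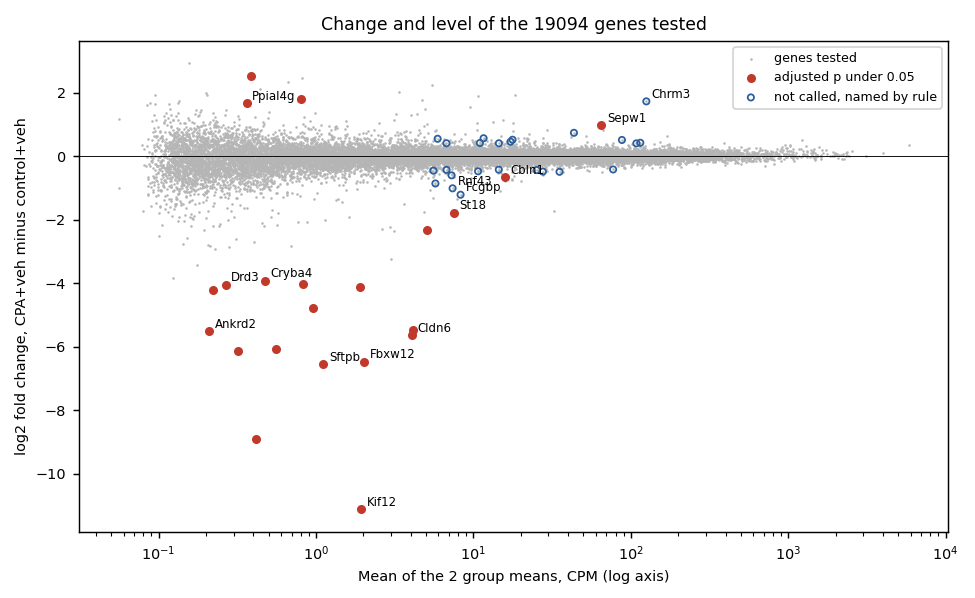
Fitted log2 fold change (CPA+veh minus control+veh) against the mean CPM of the 2 groups (log axis) for 19094 genes. Filled red points are the 22 genes that passed the test and open blue points are 24 further genes named by rule. Of the called genes 18 lie below 0. Fitted values of genes without counts in CPA+veh, such as Kif12, depend on the prior count of the fit.

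Cldn6 encodes claudin 6, a tight junction protein of embryonic epithelia. It stood at 0.0942, 0.187, 0.122 and 0.224 CPM in CPA+veh replicates 1 to 4 and at 5.79, 5.44, 14.8 and 6.10 CPM in control+veh replicates 1 to 4. Control replicate 3 was far above the other controls, and the groups were widely separated. The log2 fold change was -5.64 ± 0.38 (adjusted p = 1.11e-05). In the CPA+RO rats Cldn6 was at 0.201, 0.246, 0.268 and 0.280 CPM, so it was under 1 CPM in each of the 8 hM3Dq carriers.

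Kif12, a kinesin motor of epithelia such as the kidney tubule, was without a count in all 4 CPA+veh rats and had 3.83, 2.19, 6.51 and 3.02 CPM in the controls. The control libraries held 1148 counts of it. With 3 counts over its 4 libraries taken as the floor, CPA+veh was 358-fold lower, pooled over the group (adjusted p = 5.86e-05). Pairs may be counted per mate, so 3 counts may be fewer fragments, and a floor of 3 fragments would give a smaller fold.

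Sftpb, surfactant protein B of the lung, was at 0.0314, 0, 0 and 0.0561 CPM in CPA+veh and 2.10, 1.31, 4.11 and 1.31 CPM in control+veh. Fbxw12, an F-box protein of ubiquitin ligases, was at 0.0628, 0.0533, 0.0306 and 0.0281 CPM in CPA+veh and 3.42, 2.48, 7.30 and 2.86 CPM in control+veh. In both genes control replicate 3 was again the highest rat and the groups were far apart (adjusted p = 0.000708 and 1.88e-05).

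Cldn6, Kif12 and Sftpb fell together, and the sequences around their starts (250 bases before to 50 after, from RefSeq on the GRCr8 assembly) are shown so that their promoters can be compared. Capitals mark a GC box (GGGCGG) or a TATA box (TATAAA), sought on both strands. Cldn6 lies at chr10:13215558-13215857 on the plus strand, Kif12 at chr5:81618320-81618619 on the minus strand and Sftpb at chr4:105917338-105917637 on the plus strand.
Cldn6: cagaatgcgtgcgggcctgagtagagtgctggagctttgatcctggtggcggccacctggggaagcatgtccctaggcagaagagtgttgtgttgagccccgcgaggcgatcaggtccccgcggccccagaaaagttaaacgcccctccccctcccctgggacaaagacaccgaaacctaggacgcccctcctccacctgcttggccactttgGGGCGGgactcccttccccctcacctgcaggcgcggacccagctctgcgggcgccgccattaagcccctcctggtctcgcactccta
Kif12: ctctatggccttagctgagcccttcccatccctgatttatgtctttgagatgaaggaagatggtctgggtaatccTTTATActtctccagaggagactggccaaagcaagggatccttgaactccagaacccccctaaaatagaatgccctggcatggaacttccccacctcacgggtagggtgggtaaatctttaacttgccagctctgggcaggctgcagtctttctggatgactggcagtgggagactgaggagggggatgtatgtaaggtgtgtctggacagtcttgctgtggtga
Sftpb: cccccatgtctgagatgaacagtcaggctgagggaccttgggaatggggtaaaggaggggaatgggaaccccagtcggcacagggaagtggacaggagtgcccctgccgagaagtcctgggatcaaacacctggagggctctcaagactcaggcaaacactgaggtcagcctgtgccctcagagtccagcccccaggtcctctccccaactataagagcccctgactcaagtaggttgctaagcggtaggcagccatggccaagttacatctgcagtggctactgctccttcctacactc
These 3 windows shared none of the motifs sought. The Cldn6 window held a GC box, was 65% G or C and had 18 CpG pairs. The Kif12 window held a TATA box on the opposite strand, was 51.3% G or C and had 1 CpG pair. The Sftpb window held none of the motifs, was 58% G or C and had 3 CpG pairs. Promoters were at hand for 10 of the 18 genes that fell, and their median G or C content was 49.2%, against 51.7% over 33465 rat promoters. Of these 10, 2 held TATAAA (14.2% of all promoters did), 1 held CCAAT (37.5%), 3 held GGGCGG (33.1%), 0 held the cyclic AMP response element TGACGTCA (1.83%), 1 held AAGTTT, the core bound by St18 and its relatives (14.7%), and 0 held the E-box CACGTG (6.42%). The motifs sought do not overlap each other. A match is of letters alone, and the lack of one says only that these letters are not in this window.

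St18, a zinc finger transcription factor of the Myt1 family, remained detected in CPA+veh, at 4.18, 2.37, 3.70 and 3.44 CPM against 9.03, 8.40, 18.2 and 10.9 CPM in control+veh (log2 fold change -1.77 ± 0.23, adjusted p = 0.00353). LOC108352098 was at 1.41, 1.61, 2.10 and 1.66 CPM against 7.46, 5.48, 14.3 and 6.39 CPM (log2 fold change -2.31 ± 0.26, adjusted p = 0.000876). In both genes the groups did not overlap and the CPA+veh rats kept a measurable level. Without CPA+veh replicates 1 and 2 together St18 had an adjusted p of 0.0609.

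Drd3, the dopamine D3 receptor, had 8 counts over the 4 CPA+veh libraries and 150 over the controls, which stood at 0.255, 0.373, 0.898 and 0.494 CPM. Ankrd2, an ankyrin repeat protein of stretched muscle, had 2 counts against 122, with controls at 0.425, 0.283, 0.703 and 0.232 CPM. Cryba4, a lens crystallin, had 16 counts against 265, with controls at 0.865, 0.360, 1.64 and 0.726 CPM. These calls rest on few reads. Ankrd2 no longer passed without CPA+veh replicate 1 (adjusted p = 0.0639), 2 (0.0597) or 4 (0.0525), and Cryba4 no longer passed without each of 8 libraries in turn, among them all 4 of CPA+veh and control+veh replicates 1, 3 and 4 (adjusted p 0.0698 to 0.173). Drd3 had an adjusted p of 0.205 without CPA+veh replicates 1 and 2 together.

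Cbln1 encodes cerebellin 1, a secreted protein that bridges presynaptic neurexins with postsynaptic glutamate receptors of the delta type, and had the highest mean CPM of the 18. It was at 11.5, 12.1, 11.8 and 13.8 CPM in CPA+veh and 21.9, 18.5, 20.7 and 16.5 CPM in control+veh. The CPA+veh rats lay close together and below each control, and here replicate 1, not 3, was the highest control. Its log2 fold change was -0.66 ± 0.10 (adjusted p = 0.0121), and it did not pass without CPA+veh replicate 1 (adjusted p = 0.0624), its replicate 3 (0.067) or the same replicate of control+veh (0.0552).

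The other genes that fell carry LOC symbols. LOC103692471 was at 0.157, 0.0800, 0.245 and 0.238 CPM against 6.54, 5.20, 14.3 and 6.13 CPM, and LOC103690061 was at 0.126, 0.200, 0.337 and 0.154 CPM against 2.68, 2.55, 6.12 and 2.99 CPM. LOC102555480 and LOC102554241 had 26 and 18 counts over CPA+veh against 463 and 550 over control+veh, and LOC108350391 had 2 against 186. LOC102548142, LOC102547539 and LOC102546539 are annotated as long noncoding RNAs. LOC102547539 had no count in CPA+veh and 247 in the controls. Against the floor of 3 counts over the group it was 77.1-fold lower, with the limit given for Kif12. In the gene order of GRCr8 LOC102547539 is the neighbour of LOC102546539, which also fell. Htr2a, the serotonin 2A receptor on the other side of LOC102546539, had a log2 fold change of 0.30 (adjusted p = 0.432). The 16 called genes that could be placed lie on 11 chromosomes. Of their 32 tested neighbours 2 were called, both in that pair, and 6 had an unadjusted p under 0.05 (9.94% of all genes did).

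**Figure D2:**
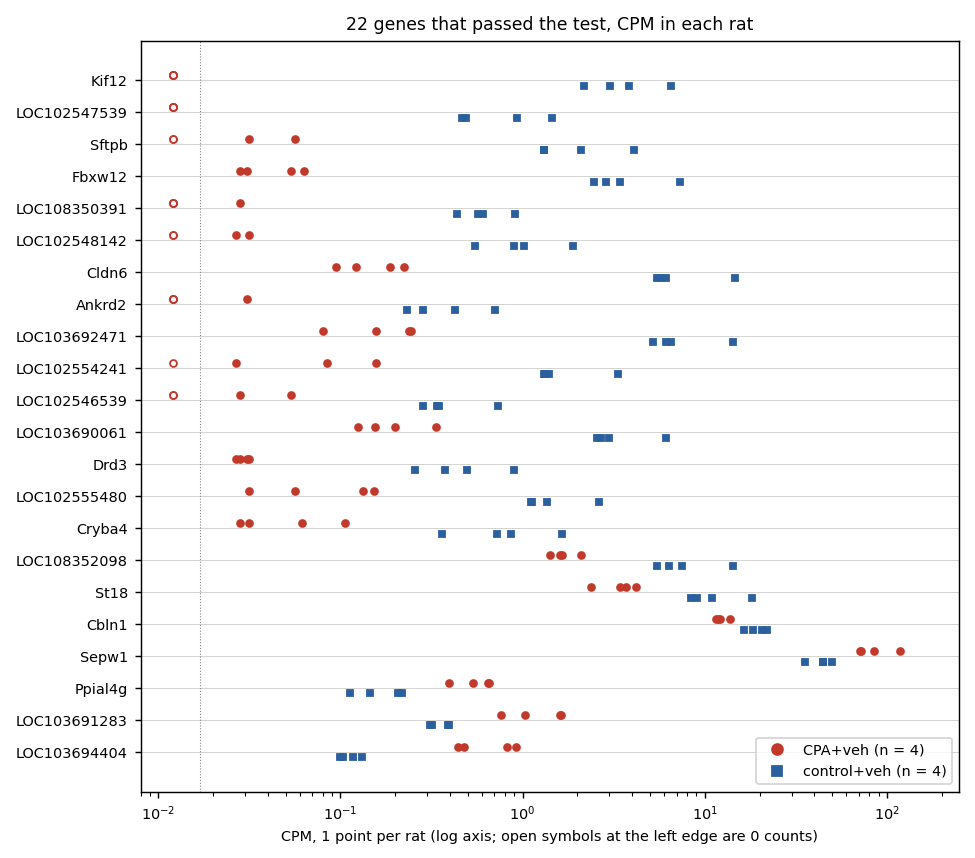
CPM on a log axis for the 22 genes that passed the test, with 1 point per rat (red circles CPA+veh, blue squares control+veh, n = 4 each) and open symbols at the left edge for 0 counts. The groups are separate in each of these genes, and in 17 of the 18 genes that fell control+veh replicate 3 is the furthest to the right.

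The 4 genes that rose were short, at 0.358 to 0.700 kb against a median of 2.81 kb over genes tested. With a correction for gene length 21 of the 22 called genes still passed, and 4 genes were called higher. Of the 4 genes that rose, Sepw1, whose current symbol is Selenow and which encodes the small selenoprotein W, was the one abundant gene. It was at 118, 84.5, 72.0 and 71.5 CPM in CPA+veh and 35.7, 44.7, 49.9 and 44.5 CPM in control+veh. The groups did not overlap, and CPA+veh replicate 1 was the highest rat. In CPA+RO it was at 88.0, 82.1, 82.3 and 124 CPM. Its log2 fold change was 0.98 ± 0.17 with an adjusted p of 0.0419, and without each of 9 of the 12 libraries in turn, all 4 controls among them, the adjusted p was 0.0545 to 0.15.

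LOC103694404, now named Rpl39-ps14 and annotated as a pseudogene of a ribosomal protein, was at 0.817, 0.920, 0.444 and 0.477 CPM in CPA+veh and 0.0993, 0.103, 0.117 and 0.131 CPM in control+veh. Its parent Rpl39 was at 16.8, 13.6, 13.2 and 13.4 CPM in CPA+veh and 17.8, 15.9, 16.5 and 18.1 CPM in control+veh, a log2 fold change of -0.26 (adjusted p = 0.373), so the pseudogene rose and the parent did not. Ppial4g, a gene related to cyclophilin A, was at 0.534, 0.653, 0.643 and 0.393 CPM in CPA+veh and 0.113, 0.219, 0.208 and 0.145 CPM in control+veh, and Ppia, cyclophilin A itself, had a log2 fold change of 0.12 (adjusted p = 0.56). Reads of such copies can be shared with the parent gene, so these calls are uncertain. Without each of 11 of the 12 libraries in turn, Ppial4g had an adjusted p of 0.0553 to 0.179. LOC103691283, a long noncoding RNA, was at 1.04, 1.61, 1.62 and 0.757 CPM against 0.397, 0.309, 0.391 and 0.319 CPM (adjusted p = 0.0116), and did not pass without control+veh replicate 2 (0.0571) or 4 (0.0584).

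Most genes that fell shared the same highest control. In 17 of the 18, all but Cbln1, control+veh replicate 3 was the highest control, at 1.44 to 1.86 times the control mean. Of the summed excess of the 4 controls over the CPA+veh mean, replicate 3 held a median of 44.9% (36.2% to 47.1% over the 17 genes), replicate 1 held 21.5%, replicate 4 held 18.9% and replicate 2 held 16.2%. For Cbln1 the shares of replicates 1 to 4 were 33.9%, 21.9%, 29.5% and 14.7%. Over all genes tested, replicate 3 was the highest control in 21.4%. With it left out 20 genes were called, 17 of them among the 22. Replicate 3 was thus the highest control from Drd3, under 1 CPM in each control, to St18, above 8 CPM in each. The other controls changed order between genes. Over the 17 genes replicate 1 spanned 0.505 to 1.12 times the control mean, replicate 2 0.401 to 0.823 and replicate 4 0.504 to 0.977.

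The same profile was sought among genes that did not pass the test, after these values had been seen. Of 501 such genes whose CPA+veh rats were all below the controls, control+veh replicate 3 was highest in 130 (25.9%, against 21.4% of all genes tested). Replicate 4 was highest in more of them (207), replicate 1 in 91 and replicate 2 in 73. In 40 of the 130, replicate 3 was at least 1.44 times the control mean. Among these 40 were Dnase2b, an acid DNase of the lens, Rnf43, a ubiquitin ligase that removes Wnt receptors, Fcgbp, a mucin-like protein that binds IgG, and Itga11, a collagen-binding integrin subunit. Dnase2b was at 0.0628, 0.213, 0.0612 and 0.0842 CPM in CPA+veh and 0.624, 0.476, 1.20 and 0.494 CPM in control+veh (adjusted p = 0.0668). Rnf43 was at 6.28, 4.59, 4.87 and 3.90 CPM in CPA+veh and 9.78, 7.41, 14.5 and 7.72 CPM in control+veh (adjusted p = 0.125). Both were selected for a high replicate 3, so its place above the other controls follows from that choice.

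Within these 40 genes a subset also ordered the CPA+veh rats. CPA+veh replicate 1 was the lowest of its group in 18 of the 40, against 21.7% of all genes, and in 11 it stood at most at 1 part in 3 of each other CPA+veh rat. In 7 of these 11 replicate 1 had no count, which meets that criterion whatever the other rats hold, and Ak7, Erp27 and Duoxa2 are the most abundant of the others. Ak7, an adenylate kinase of cilia, was at 0.126, 1.01, 0.919 and 1.50 CPM in CPA+veh and 3.26, 2.87, 8.62 and 2.83 CPM in control+veh. Erp27, an endoplasmic reticulum protein of the disulfide isomerase family, was at 0.0942, 1.57, 0.934 and 1.51 CPM against 4.57, 3.07, 9.02 and 2.82 CPM. Duoxa2, a maturation factor of dual oxidase, was at 0.126, 1.77, 0.980 and 1.23 CPM against 5.26, 2.60, 10.3 and 2.80 CPM. In each of these genes CPA+veh replicate 1, the rat with the lowest Chrm3 of its group, was the lowest by far, and replicates 2 and 4, the rats with the highest Chrm3, were above replicate 3. Hes3, a repressor of the Hairy family known from neural stem cells, is among the 40 but not among the 11. It followed the same order, at 0.283, 0.880, 0.429 and 1.09 CPM against 2.06, 1.45, 4.64 and 2.06 CPM. Between groups the relation to Chrm3 ran the other way. The controls had lower Chrm3 (53.1 to 64.9 CPM), and each was above each CPA+veh rat in Ak7, Erp27, Duoxa2 and Hes3. That separation was a condition of their choice. In CPA+RO replicates 1 to 4, with Chrm3 at 170.3, 247, 101 and 167 CPM, Ak7 was at 0.661, 1.32, 0.535 and 0.865 CPM, Erp27 at 0.661, 0.942, 0.268 and 0.763 CPM, Duoxa2 at 0.891, 1.06, 0.178 and 0.992 CPM and Hes3 at 0.403, 0.587, 0.193 and 0.649 CPM. Replicate 3, with the lowest Chrm3, was the lowest of the CPA+RO rats in these 4 genes. Replicate 2, with the highest Chrm3, was not the highest in Hes3. Of the rest of the 11, CPA+RO replicate 3 was the lowest in Cyp4f39, Zc3h12d, LOC103689967 and LOC108350726, but not in LOC102554142. It was the highest in Pax7, a paired box factor, at 0.0575, 0.0819, 0.0892 and 0.0763 CPM. It was also the highest in LOC102550567, at 0.201, 0.0819, 0.416 and 0.0254 CPM, and in LOC108349645, where it held the only counts. These genes were picked for this order, which is therefore a description. None of Ak7, Erp27, Duoxa2 and Hes3 passed the test (adjusted p 0.203 to 0.275), and the part of the level of the virus in their values was not tested.

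**Figure D3:**
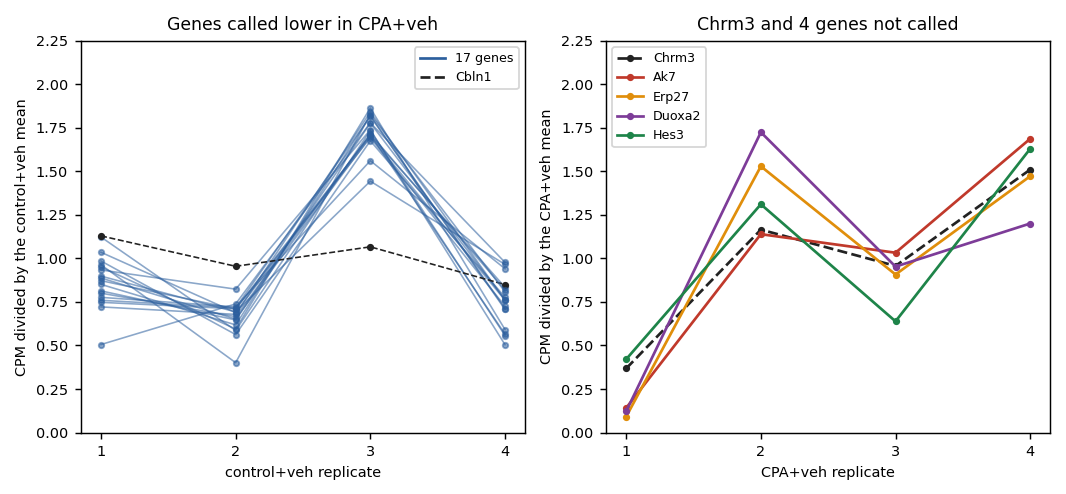
Left, CPM of each control+veh rat divided by the control+veh mean for the 18 genes that fell, with Cbln1 dashed; right, CPM of each CPA+veh rat divided by the CPA+veh mean for Chrm3 (dashed) and 4 genes that did not pass the test. Lines join the values of 1 gene over rats, which have no order; replicate 3 is at 1.44 to 1.86 in the 17 solid lines on the left, and replicate 1 is the lowest rat in the lines on the right.

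Beyond the called genes, 180 named genes had an unadjusted p under 0.01, groups that did not overlap and a mean of at least 5 CPM, 96 of them higher and 84 lower in CPA+veh. None of them passed the adjusted threshold, and the 12 furthest in each direction are given by their values. RragB, a Rag GTPase that brings mTORC1 to the lysosome, was at 57.6, 42.9, 47.3 and 70.2 CPM in CPA+veh and 39.7, 21.1, 33.6 and 35.8 CPM in control+veh (log2 fold change 0.74 ± 0.21, adjusted p = 0.31). Adra1b, the alpha-1B adrenergic receptor, which like hM3Dq couples to Gq, was at 21.5, 16.9, 23.6 and 18.0 CPM against 14.1, 14.7, 15.0 and 14.1 CPM (0.46 ± 0.11, adjusted p = 0.255). Hapln4, a link protein of perineuronal nets, was at 94.5, 98.2, 114 and 107 CPM against 58.5, 67.4, 79.6 and 83.5 CPM (0.52 ± 0.13, adjusted p = 0.257). In these genes the spread within CPA+veh was wide beside the gap between its lowest rat and the highest control.

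Phospho1, a phosphatase of phosphoethanolamine and phosphocholine, had the smallest p among the higher ones after Chrm3, at 20.9, 24.4, 21.8 and 16.6 CPM against 14.4, 13.5, 14.8 and 15.4 CPM (log2 fold change 0.53 ± 0.11, adjusted p = 0.127), and without CPA+veh replicate 4 its adjusted p was 0.0172. Cdk5r2, the p39 activator of the neuronal kinase Cdk5, was at 139, 141, 137 and 111 CPM against 109.7, 103, 98.1 and 80.9 CPM (0.43, adjusted p = 0.288). Mfsd2a, the carrier of lysophospholipids at the blood-brain barrier, was at 16.7, 17.4, 16.6 and 15.6 CPM against 11.3, 10.1, 15.2 and 13.2 CPM (0.41 ± 0.10, adjusted p = 0.27). Mfsd2a is an endothelial gene, and it stood higher in CPA+veh where the endothelial markers described below stood lower. Cd4, Cdpf1, P4ha3 (a collagen prolyl hydroxylase subunit), Fa2h and Prdx6 completed the 12, with log2 fold changes of 0.57, 0.56, 0.42, 0.41 and 0.41.

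Among the lower ones, Fcgbp (log2 fold change -1.21), Rnf43 (-1.005) and Itga11 (-0.85) had the profile of control replicate 3 described above. Pde1c, a calmodulin-dependent phosphodiesterase, did not have it, at 6.08, 5.99, 5.31 and 5.78 CPM in CPA+veh and 9.16, 8.63, 9.44 and 7.77 CPM in control+veh. Its spread within groups was small beside the distance between them, and its log2 fold change of -0.60 ± 0.11 had an adjusted p of 0.067, or 0.0247 without CPA+RO replicate 3. Kcnj2, the inward rectifier Kir2.1, was at 27.4, 23.5, 33.8 and 32.9 CPM against 39.9, 46.5, 34.3 and 43.9 CPM (-0.48 ± 0.12, adjusted p = 0.27). Prokr2, a prokineticin receptor that couples to Gq, was at 10.9, 11.7, 13.1 and 14.0 CPM against 14.6, 17.2, 17.6 and 16.9 CPM (-0.42 ± 0.09, adjusted p = 0.162). CPA+veh replicate 3 nearly reached the lowest control in Kcnj2, as replicate 4 did in Prokr2. Pygl, a glycogen phosphorylase, was at -0.45, Lrch2 at -0.43, Elmod2 at -0.42 and Cxadr, an adhesion protein known as a virus receptor, at -0.41 on the log2 scale, and the vessel genes Pecam1 and Col4a1 are given with their lists.

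Lists for 34 programs and 13 cell types were then described by the number of members above and below 0, their median log2 fold change and each rat's median, beside the same over all genes. Across the 47 lists Kif12, in that of microtubule motors, was the one member that passed the test. Counts of members stand against the shares over all genes. These were 4.99% higher and 4.94% lower at an unadjusted p under 0.05, and 1.9% higher and 2.72% lower without overlap. Rat medians below are the median over a list of log2 CPM minus the control+veh mean. In bulk tissue, fewer cells of a type and less RNA per cell cannot be told apart.

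**Figure D4:**
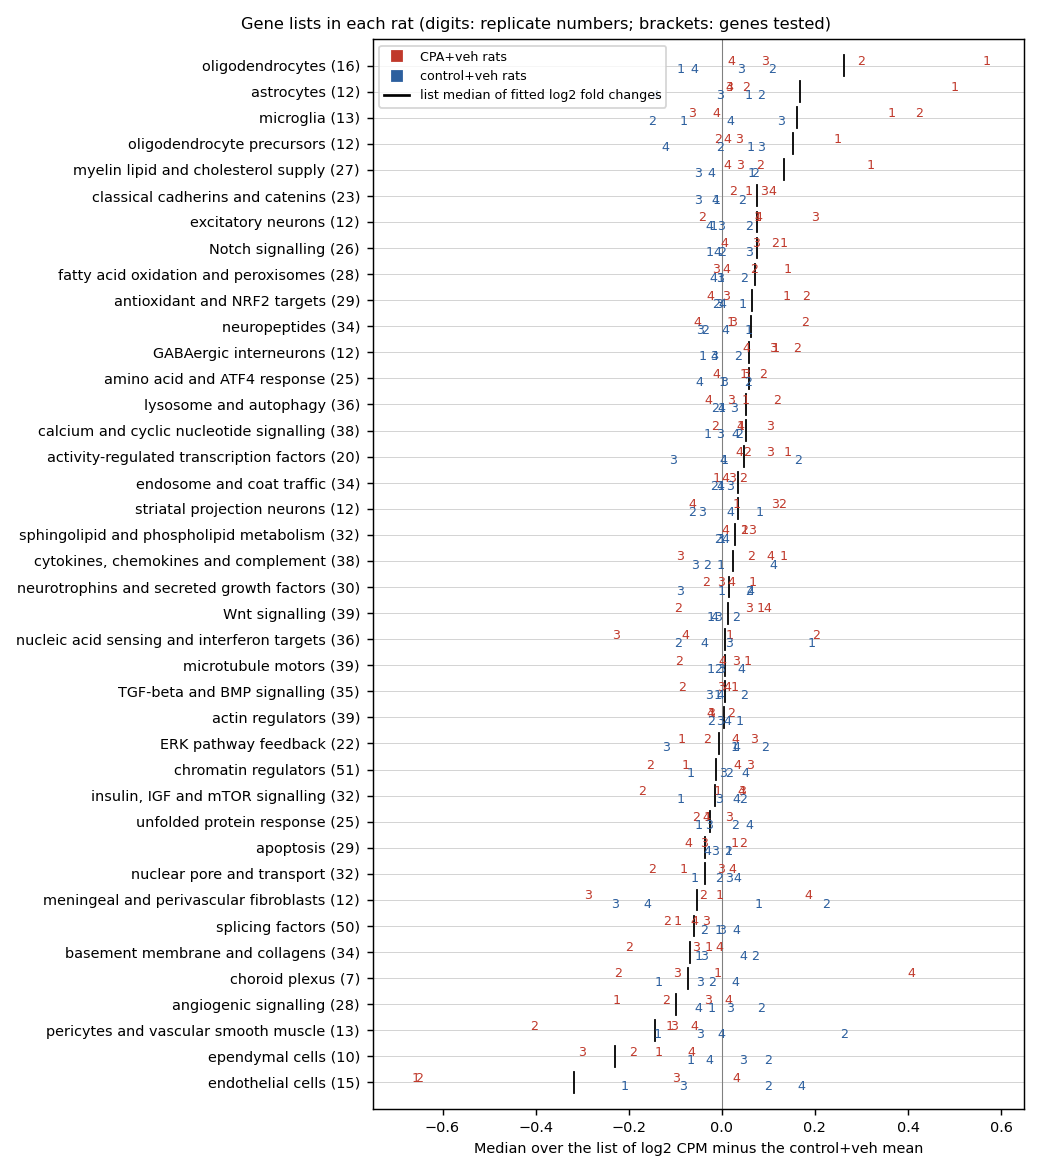
Median over each list of log2 CPM minus the control+veh mean, with a digit for each replicate (red CPA+veh, blue control+veh) and a black bar for the list median of fitted log2 fold changes. CPA+veh replicates 1 and 2 lie far from the others in oligodendrocytes (0.57 and 0.30) and endothelial cells (-0.66 and -0.65), whereas all 4 CPA+veh rats are below 0 in splicing factors.

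Vessel markers had lower values in CPA+veh. All 15 endothelial markers tested had log2 fold changes below 0, 6 at an unadjusted p under 0.05 and 2 with groups that did not overlap, and their median was -0.32. Pecam1, the junctional adhesion molecule CD31, was at 7.85, 7.11, 10.6 and 10.4 CPM in CPA+veh and 12.3, 12.6, 11.4 and 13.4 CPM in control+veh (log2 fold change -0.47 ± 0.13, adjusted p = 0.288). Emcn, the sialomucin endomucin, was at 4.30, 3.55, 4.24 and 4.04 CPM against 5.37, 5.96, 4.90 and 6.10 CPM (adjusted p = 0.31). In both, CPA+veh lay below each control. Kdr and Tek, receptors of vascular endothelial growth factor and of angiopoietin, had log2 fold changes of -0.53 and -0.38, and in both CPA+veh replicate 4 overlapped the controls. The rat medians of the list were -0.66, -0.65, -0.10 and 0.03 in CPA+veh and -0.21, 0.10, -0.08 and 0.17 in control+veh. Replicates 1 and 2 were the low rats, and without them 10 of the 15 markers were below 0 with a median of -0.03. The 6 markers at an unadjusted p under 0.05 became 3 when CPA+veh replicate 1, its replicate 2 or control+veh replicate 4 was left out. With CPA+veh replicate 4 left out they became 10. The summed level of the markers was 179 to 301 CPM in CPA+veh and 244 to 321 CPM in control+veh.

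Most mural and matrix genes also had log2 fold changes below 0, but few had a small p. Of 13 pericyte and vascular smooth muscle markers 11 were below 0 (median -0.14), led by Rgs5, a regulator of G protein signalling of pericytes, at 13.5, 10.2, 17.2 and 18.0 CPM against 16.3, 24.6, 19.1 and 22.5 CPM (log2 fold change -0.49, adjusted p = 0.361), and by Abcc9, a potassium channel subunit (-0.30). The rat medians were -0.11, -0.40, -0.10 and -0.06 in CPA+veh and -0.14, 0.26, -0.05 and 0.00 in control+veh, so CPA+veh replicate 2 was the far rat and control replicate 1 lay below the other 3 CPA+veh rats. Without CPA+veh replicates 1 and 2 the median was -0.13 with 9 of 13 below 0. Of 34 basement membrane and collagen genes 26 were below 0 (median -0.07), and 2 were lower (4.94% of all genes were) and 1 higher at an unadjusted p under 0.05, the latter being Fbln1, the matrix protein fibulin 1 (log2 fold change 0.25). Col4a1, a chain of vascular collagen IV, was at 25.5, 18.6, 24.6 and 23.7 CPM in CPA+veh and 31.5, 39.4, 26.7 and 31.1 CPM in control+veh (log2 fold change -0.48 ± 0.12, adjusted p = 0.263), with no overlap. Of 28 angiogenic signalling genes 17 were below 0 (median -0.10), with Hif1a, the oxygen-regulated transcription factor, at -0.15 and Vegfa, the ligand of Kdr, at 0.18. Without replicates 1 and 2 the medians of the matrix and angiogenic lists were -0.03 and -0.01.

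Myelin markers had higher values in CPA+veh. All 16 oligodendrocyte markers were above 0, 9 at an unadjusted p under 0.05 and 1 without overlap, with a median log2 fold change of 0.26. Mbp, myelin basic protein, was at 2221, 1488, 1078 and 1028 CPM in CPA+veh and 950.2, 1091, 1039 and 971 CPM in control+veh (log2 fold change 0.52 ± 0.18, adjusted p = 0.395). Sox10, the transcription factor of the lineage, was at 22.7, 22.6, 18.1 and 15.7 CPM against 14.7, 17.1, 16.7 and 14.4 CPM (adjusted p = 0.383). In both genes replicates 1 and 2 stood above the controls and replicates 3 and 4 among or next to them. Cldn11 and Mag, proteins of the myelin sheath, had log2 fold changes of 0.29 and 0.31. The rat medians were 0.57, 0.30, 0.09 and 0.02 in CPA+veh and -0.09, 0.11, 0.04 and -0.06 in control+veh, and without replicates 1 and 2 the median was 0.05 with 13 of 16 above 0. Without CPA+veh replicate 1 alone, 2 of the 16 were above 0 at an unadjusted p under 0.05 in place of 9. The summed level of the markers was 2970.1 to 5263 CPM in CPA+veh and 2717 to 3103 CPM in control+veh.

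The genes that supply myelin lipid and cholesterol were looked at as a separate list, which shares Ugt8 with the markers. Of 27 genes 25 were above 0, 4 at an unadjusted p under 0.05 and 2 without overlap (median 0.13, against 0.01 for all genes). Fa2h, which hydroxylates the fatty acids of myelin galactolipids, was at 8.32, 8.13, 7.46 and 6.90 CPM in CPA+veh and 5.42, 6.23, 6.15 and 5.31 CPM in control+veh (log2 fold change 0.41 ± 0.11, adjusted p = 0.271). Srebf2, the transcription factor of cholesterol synthesis, was at 244, 239.9, 271 and 239 CPM against 211, 233, 229 and 234 CPM (0.13, adjusted p = 0.461). Unlike in Mbp, the groups were separate in all 4 CPA+veh rats in both genes. Ugt8, which makes galactosylceramide, had a log2 fold change of 0.26. The rat medians were 0.32, 0.08, 0.04 and 0.01 in CPA+veh and 0.06, 0.07, -0.05 and -0.02 in control+veh, so that replicate 1 stood apart, replicate 2 was next to the highest control and replicates 3 and 4 lay among the controls. Without replicates 1 and 2 the median was 0.02 with 16 of 27 above 0.

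**Figure D5:**
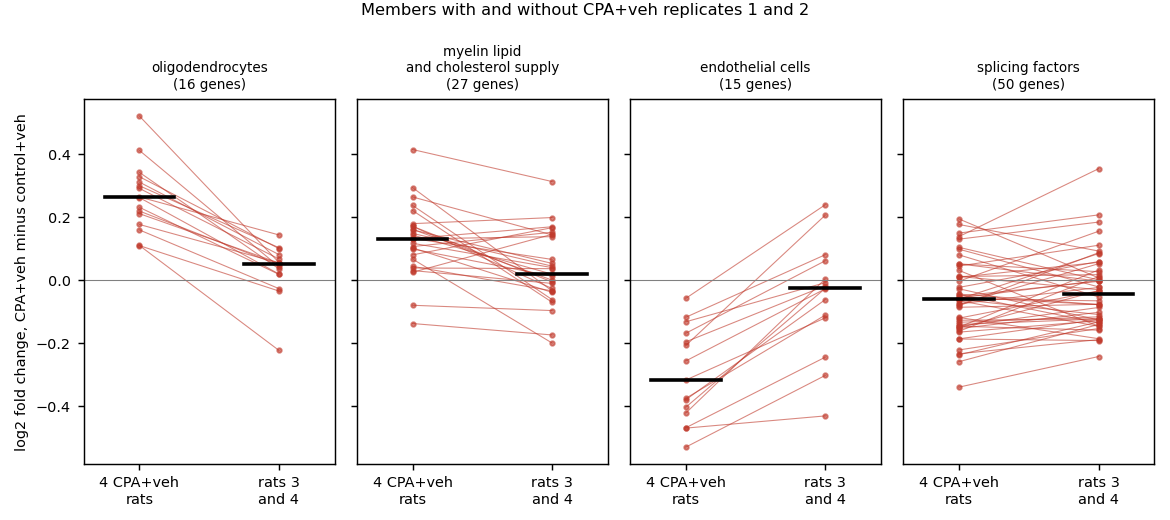
Fitted log2 fold change (CPA+veh minus control+veh) of each member of 4 lists with all 4 CPA+veh rats (left points) and with replicates 3 and 4 alone (right points), lines joining a gene and black bars marking medians. The medians move from 0.26 to 0.05 in oligodendrocytes, from 0.13 to 0.02 in myelin lipid supply, from -0.32 to -0.03 in endothelial cells and from -0.06 to -0.04 in splicing factors.

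Other glial markers stood highest in CPA+veh replicate 1 for astrocytes and in replicates 1 and 2 for microglia. Of 12 astrocyte markers 11 were above 0 (median 0.17), with Gjb6, the gap junction protein connexin 30, at 47.4, 46.6, 35.1 and 40.9 CPM against 30.9, 34.8, 35.3 and 33.7 CPM (log2 fold change 0.34, adjusted p = 0.298), and Aldoc, an astrocytic aldolase, at 0.24. Of 13 microglia markers 12 were above 0 (median 0.16), with Cx3cr1, the fractalkine receptor, at 7.44, 8.60, 6.98 and 7.24 CPM against 5.19, 6.97, 6.78 and 6.07 CPM (0.27, adjusted p = 0.466). Without replicates 1 and 2, 5 of 12 astrocyte and 3 of 13 microglia markers were above 0, and their medians were 0.00 and -0.05. Of 10 ependymal markers 7 were below 0 (median -0.23), with Dnah11, a dynein of motile cilia, at 1.48, 1.21, 1.59 and 1.66 CPM against 2.48, 2.47, 2.86 and 2.22 CPM (-0.76 ± 0.15, adjusted p = 0.105), and the cilia genes Ccdc39 and Tekt1 at -0.25 and -0.36. The ependymal rat medians were -0.14, -0.19, -0.30 and -0.06 in CPA+veh and -0.07, 0.10, 0.05 and -0.03 in control+veh, below 0 in all 4 CPA+veh rats but overlapping between groups. Ttr, the transport protein of choroid plexus, was higher in each CPA+veh rat, at 1.01, 1.28, 1.50 and 0.954 CPM against 0.425, 0.232, 0.391 and 0.348 CPM (1.76 ± 0.32, adjusted p = 0.0571, or 0.00825 without CPA+RO replicate 4). Of the 7 choroid plexus markers tested, 4 were below 0, and their summed level was 7.41 to 7.95 CPM in CPA+veh and 6.97 to 7.62 CPM in control+veh.

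Splicing factors had medians below 0 in all 4 CPA+veh rats. Of 50 genes 35 were below 0, against 48.1% of all genes, 13 at an unadjusted p under 0.05 and 6 with CPA+veh below every control, and none was higher at that p. Srsf10, a splicing factor controlled by phosphorylation, was at 37.1, 38.4, 42.7 and 44.0 CPM in CPA+veh and 46.3, 47.7, 50.7 and 60.5 CPM in control+veh (log2 fold change -0.34 ± 0.10, adjusted p = 0.3). Hnrnpa2b1, an RNA binding protein that also carries RNA into dendrites, was at 270.0, 285, 266 and 279 CPM against 306, 300.2, 289 and 322 CPM (-0.15 ± 0.05, adjusted p = 0.367). Both were lower in each CPA+veh rat than in each control. Hnrnph1 and Tra2a, further regulators of exon choice, were at -0.23 and -0.22. The differences were small, with a list median of -0.06 and rat medians of -0.10, -0.12, -0.03 and -0.06 in CPA+veh and -0.01, -0.04, 0.00 and 0.03 in control+veh, where control replicate 2 overlapped CPA+veh replicate 3. Without CPA+veh replicates 1 and 2 the median was -0.04 with 33 of 50 below 0, and 6 members had an unadjusted p under 0.05 in either direction. At that p, 5 members were lower without control+veh replicate 4, in place of 13. Chromatin regulators (32 of 51 below 0, median -0.01) and nuclear pore genes (21 of 32 below 0, median -0.04) had rat medians on both sides of 0 in CPA+veh, with Sirt1, a deacetylase, at -0.22 and Tpr, a nuclear basket protein, at -0.21. Both turned without replicates 1 and 2, to 38 of 51 above 0 (median 0.04) and 17 of 32 above 0 (0.01), and the chromatin median was 0.01 with a correction for gene length.

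Neuronal markers differed by small amounts. Excitatory neuron markers had 7 of 12 above 0 (median 0.08) and 5 at an unadjusted p under 0.05, each higher in CPA+veh, and without replicates 1 and 2 11 were above 0 (median 0.14). Tbr1, a transcription factor of deep layer neurons, was at 58.0, 55.1, 70.9 and 62.0 CPM against 48.3, 53.0, 53.3 and 50.6 CPM (log2 fold change 0.26 ± 0.08, adjusted p = 0.31), with Nrgn, the calmodulin-binding neurogranin, at 0.31 and Fezf2, a factor of subcortical projection neurons, at 0.20. Interneuron markers had 8 of 12 above 0 (median 0.06). Sst, the neuropeptide somatostatin, was at 153, 177, 153 and 151 CPM against 137, 100.3, 142 and 104 CPM (0.39 ± 0.13, adjusted p = 0.367), and Lamp5, a marker of neurogliaform cells, had a log2 fold change of 0.40. Sst did not overlap between groups. Chgb, a granin of secretory granules, was lower in each CPA+veh rat, at 435, 469, 456 and 437 CPM against 526, 476, 528 and 522 CPM (-0.19 ± 0.06, adjusted p = 0.31). Of 34 neuropeptide genes 21 were above 0, 1 higher and 1 lower at an unadjusted p under 0.05, and their median of 0.06 became -0.03 without replicates 1 and 2.

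Programs of activity and of Gq signalling were examined in tissue taken after 7 days of vehicle without CNO and after slice recording. Among 20 activity-regulated transcription factors and related early genes 14 were above 0 (median 0.05) and 1 was higher and 1 lower at an unadjusted p under 0.05. Arc, an organizer of synaptic receptor traffic, was at 230.5, 189, 180.3 and 187 CPM against 136, 183, 149 and 151 CPM (log2 fold change 0.35, adjusted p = 0.454). Nr4a3, an orphan nuclear receptor, was at 93.1, 59.9, 95.0 and 103 CPM against 114, 132, 82.2 and 118 CPM (-0.35, adjusted p = 0.49). Groups overlapped in both. The 22 feedback genes of the ERK pathway had 0 members at an unadjusted p under 0.05 in either direction (median -0.01), and 4 with a median of 0.04 without CPA+veh replicates 1 and 2. Of 38 genes of calcium and cyclic nucleotide signalling, 6 were higher and 2 lower at an unadjusted p under 0.05 (median 0.05). Camk2g, a calcium/calmodulin kinase, was at 174, 165, 183 and 173 CPM against 152, 156, 157 and 154 CPM (0.17 ± 0.05, adjusted p = 0.279). Calm3, a calmodulin gene, and Adcy2, an adenylyl cyclase, were at 0.17 and 0.12, like Camk2g without overlap between groups, and Camkk2, a kinase upstream of other calmodulin kinases, was at 0.27. Nrn1, an activity-induced secreted protein of axons and dendrites, was at 97.4, 125, 108 and 100.1 CPM against 83.5, 90.4, 82.9 and 93.9 CPM (0.30, adjusted p = 0.329).

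Signalling and lipid lists had a few separate members each. Of 26 Notch genes 23 were above 0 (median 0.08), 3 at an unadjusted p under 0.05, with Rfng, a glycosyltransferase that modifies Notch receptors, at 68.8, 65.8, 58.8 and 60.1 CPM against 51.8, 52.1, 54.6 and 51.9 CPM (log2 fold change 0.27 ± 0.07, adjusted p = 0.257), and its relative Lfng at 0.33. Of 39 Wnt genes 5 were higher and 1 lower at an unadjusted p under 0.05, against 4.99% and 4.94% of all genes (list median 0.01). The lower one was Rnf43, and the Wnt receptors Fzd9, Fzd4 and Fzd8 were at 0.34, 0.32 and 0.30. Of 32 genes of sphingolipid and phospholipid metabolism 5 were higher at an unadjusted p under 0.05 (4.99% of all genes were). In 4 of the 32, CPA+veh was above every control (1.9% of all genes), and the list median was 0.03. Cers1, the ceramide synthase of neurons, was at 21.5, 25.1, 26.1 and 20.2 CPM against 18.0, 17.8, 19.5 and 17.2 CPM (0.36 ± 0.09, adjusted p = 0.263), above each control in each CPA+veh rat. Basp1, a membrane protein of growth cones in the list of 39 actin regulators, was at 181, 177, 193 and 157 CPM against 149, 144, 142 and 127 CPM (0.33 ± 0.09, adjusted p = 0.271), while Tiam1, an activator of Rac, was at -0.18. Rab11a, a GTPase of recycling endosomes, was at 94.9, 84.9, 98.3 and 102 CPM against 111, 115, 109 and 115 CPM (-0.24 ± 0.07, adjusted p = 0.31).

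Stress, immune and metabolic lists had few members at a small p. The unfolded protein response had 2 of 25 lower at an unadjusted p under 0.05 (4.94% of all genes were), with Canx, the chaperone calnexin, at -0.14 on the log2 scale. Targets of ATF4 and genes of fatty acid oxidation had 0 members at that p in either direction, with medians of 0.06 and 0.07, as had the 36 genes of nucleic acid sensing and interferon response (median 0.01). The rat medians of the interferon list were 0.02, 0.20, -0.23 and -0.08 in CPA+veh and 0.19, -0.09, 0.02 and -0.04 in control+veh, and the rats of both groups were widely spread. Without CPA+veh replicates 1 and 2, 30 of its 36 genes were below 0 (median -0.15), and the medians of fatty acid oxidation and of antioxidant genes were -0.02 and -0.02, against 0.06 for the latter with all rats. Antioxidant genes had 3 of 29 higher at that p, among them Prdx6, a peroxiredoxin, at 152, 130.2, 105 and 109 CPM against 103, 97.9, 88.7 and 83.3 CPM (log2 fold change 0.41 ± 0.11, adjusted p = 0.271), where CPA+veh replicates 1 and 2 were the high rats. Cytokine, chemokine and complement genes had 2 higher and 3 lower of 38, against 4.99% and 4.94% of all genes. In the list of 29 apoptosis genes, Apaf1, the core of the apoptosome, was at -0.21 and Casp9, the caspase it activates, at 0.18, both without overlap between groups and in opposite directions.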

How the data were processed

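Bulk RNA from mPFC of 12 rats (4 a group) was sequenced from stranded poly(A) libraries. The authors deposited raw counts per gene (unit: counts) for rn6 (Rnor_6.0), made after bcl2fastq, FastQC, STAR and SAMtools per the labels; for these tools the version, and for the counts the annotation and counting rule, were not given in the sources used here. RPKM values were deposited by the authors as well and served for levels per gene length and as an alternative unit. Of counts from 10 to 99, 87.5% to 88.2% were even in each library, so pairs may be counted per mate and reads are not independent molecules.

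Groups came from the labels. Counts of all 12 libraries were scaled by TMM, filtered with filterByExpr and fitted with edgeR 4.0.16 (R 4.3.3; quasi-likelihood test, two-sided, group as the one term) for CPA+veh minus control+veh. Benjamini-Hochberg adjustment ran over 19094 genes, and an adjusted p under 0.05 counted as called. The study itself used a one-way analysis of variance with post hoc adjustment. CPA+veh and CPA+RO share their controls. Fold changes are fitted log2 values with the default prior count of the fit. A prior count of 2 was used only for log2 CPM, as in rat medians and principal components. The floor for genes without counts was 3 counts over the group. Cohorts are not tied to libraries, so no batch term could be fitted.

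Named genes were all called genes, the 12 highest and 12 lowest others with an unadjusted p under 0.01, no overlap and a mean of at least 5 CPM (LOC and similar provisional symbols left out), up to 4 members of smallest p of each list, and 8 tissue genes; a few genes that this rule names are not reported here. Members and lists were chosen with earlier results of these data known; genes named for their profile over rats were chosen after their values were seen. Alternatives used DESeq2 1.42.0, limma 3.58.1, other scalings, filters and units, a correction for gene length, the replicate number as a block, and libraries left out. Promoter sequences are from RefSeq (GRCr8); 23199 table IDs (80.0%) matched RefSeq. The fit was tested on simulated counts.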

Additional observations from a re-analysis of the deposited data

Results flagged for a closer look

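In 20 of 318 groups of 4 rats looked at, 1 rat stood apart: its gap to the nearest other rat, divided by the range of the group (the gap ratio), was above Dixon's 95% critical value. Chance flags about 1 in 20 groups.

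Control+veh replicate 3 was the far rat in 6 called genes that fell, with gap ratios of 0.93 for Cldn6, 0.853 for LOC103692471, 0.876 for LOC103690061, 0.834 for LOC102555480, 0.953 for LOC102554241 and 0.853 for LOC102546539. It was also the far rat, on the high side, in Ak7 (0.926), Rfng (0.902) and Tiam1 (0.84). These genes share the same rat, so they are not independent of each other. Ak7 was named for a high control+veh replicate 3, so its flag follows in part from that choice.

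In CPA+veh, the gap ratio was 1 for LOC108350391 and 1 for Ankrd2, where replicate 4 and replicate 3 respectively held the only counts. Replicate 2 was the far rat in Sst (0.918) and Dnase2b (0.849), both high, replicate 3 in Srebf2 (0.845, high) and replicate 4 in Cdk5r2 (0.877, low). Control+veh replicate 2 was the far rat in P4ha3 (0.961, high) and Chgb (0.886, low).

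Among list medians in CPA+veh, replicate 1 was far above the others in astrocytes (0.925), and replicate 2 was far below in pericytes and vascular smooth muscle (0.844) and above in actin regulators (0.913).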

How the results depend on the processing

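Of the 22 called genes, 2 (Kif12 and LOC102547539) passed in all alternatives that tested them, and 0 changed direction in any of 27. Against 22 called genes (4 higher, 18 lower), the number was 12 (1 higher, 11 lower) with a filter of at least 1 CPM in 4 libraries, 5 (0 higher, 5 lower) with limma-voom and sample quality weights, 107 (34 higher, 73 lower) with DESeq2, 32 (8 higher, 24 lower) with no filter, 19 (1 higher) with limma-voom and 14 (1 higher) without CPA+veh replicates 1 and 2 together, where 10 of the 22 remained. Leaving out 1 library at a time gave 18 to 26 called genes, 1 to 8 higher and 15 to 20 lower, with 1262 to 3227 genes at an unadjusted p under 0.05 against 1897. The lowest of these was without control+veh replicate 4 and the highest without CPA+veh replicate 4, which also gave the 8 higher genes. Genes whose groups do not overlap were 882, 897 to 2447 after dropping single libraries, and 3290 when CPA+veh replicates 1 and 2 were dropped, since fewer rats overlap less often by construction; otherwise the cause was not tested. The replicate numbers did not pair the rats: correlations of same-numbered rats were 0.06, -0.11, -0.01 and 0.10. With the replicate number as a block 17 genes were called (2 higher), all among the 22, and 18 (2 higher) with the length correction as well. Gad1, at -0.02 and not called, ranged from -0.038 to 0.0058 with 1 library left out and stood at 0.017 without CPA+veh replicates 1 and 2. Counted over each list in each alternative, 1250 list medians moved by less than the larger standard deviation between rats of the 2 groups and 19 by more. That standard deviation includes CPA+veh replicates 1 and 2. For endothelial cells it was 0.36, so the move of the median from -0.32 to -0.03 without these rats counted as less. Calls under 1 CPM rest on few reads, so depth limits their fold changes.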
